A study of Mus musculus with 17 samples.

Results

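The 4 genes of the INK4 family, Cdkn2a, Cdkn2b, Cdkn2c and Cdkn2d, were followed through all 17 single-cell libraries of the series, 8 from skin and 9 from kidney. They are 4 of the 30406 genes found in both gene lists of the deposited counts. The family was selected on the CPM of Cdkn2a, which was higher with bleomycin in skin stromal cells of SARAWT mice, so the levels in that contrast are given as a description, with no test.

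INK4 proteins bind the cyclin-dependent kinases CDK4 and CDK6 and keep them from pairing with D-type cyclins, so that the retinoblastoma protein stays active and E2F target genes stay silent. Cdkn2b encodes p15INK4b, Cdkn2c encodes p18INK4c and Cdkn2d encodes p19INK4d. Cdkn2a encodes p16INK4a and, from a separate first exon read in another frame, p19ARF, which holds back MDM2 and so stabilizes p53. Cdkn2a and Cdkn2b are silenced by Polycomb proteins in young tissue and are widely used as markers of cellular senescence, whereas Cdkn2c and Cdkn2d are known for levels that follow the cell cycle and differentiation.

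All mice carried PDGFRb-Cre and the Z/EG reporter, in which Cre turns on GFP, and were 8 weeks old. SARATg mice also carried human SARA cDNA (ZFYVE9) behind a CAG promoter and a lox-stop-lox cassette at the Rosa26 locus, and SARAWT mice lacked it, so the controls carry the Cre and the reporter too. The skin libraries were 3 of SARAWT mice after PBS, 3 of SARAWT mice after bleomycin, and 1 of SARATg mice for either treatment. Bleomycin was given under the skin at 20 mg/kg, 3 times a week for 2 weeks by the labels, whereas the methods of the study describe daily injection. Kidney came from SARAWT mice given vehicle (3) or aristolochic acid, AA (3), and SARATg mice given vehicle (2) or AA (1), with AA injected into the peritoneum at 5 mg/kg, 3 times a week for 3 weeks. GFP+ cells were sorted, and because the PDGFRb promoter is also active in leukocytes in these mice, GFP marks descent from cells that once used it and not pericytes alone. The labels do not say whether libraries of a group came from separate mice, so p-values measure the spread between libraries, which may be technical, and each SARATg group after treatment is 1 library.

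Cells were assigned to classes by 10 markers per class, and classes carry the name of their marker list. The classes go against the PDGFRb+ label for many cells. In skin, stromal cells with fibroblast markers were 2.77 to 21.0% of kept cells and mural cells, the class of pericytes, 0.129 to 1.42%. In kidney, fibroblast-marker cells were at most 0.548% and mural cells at most 0.213%, while proximal tubule cells were 8.82 to 83.9%.

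Depth ran from 3355217 UMIs (SARAWT PBS library 2 of skin) to 137093834 UMIs, with 776 to 10664 cells kept per library and a median of 1258 to 11046 UMIs per kept cell. Between 7.38 and 55.5% of the deposited barcodes of a library were shared with another skin library in the 4 skin libraries with the longer gene list, against 0.594 to 0.824% in the other skin libraries and 1.66 to 2.13% in kidney. Zfyve9 or the human ZFYVE9 entry, read as a check of genotype, went most clearly against the label in 4 libraries. The library labelled SARAWT PBS 1 of skin had 844 CPM of the human ZFYVE9 entry, against 87.3 to 190 CPM in the other libraries that list it. Its Zfyve9 was 26.0 CPM. Those other libraries, PBS 2 and bleomycin 1 and 2, are also labelled SARAWT and should lack the human cDNA, so their values are no clean baseline. No SARATg library lists the entry, and the source of these UMIs was not tested. The library labelled SARAWT PBS 3 of skin had 614 CPM of Zfyve9, against 222 and 314 CPM in the SARATg skin libraries. The kidney library labelled SARAWT AA 1 had 163 CPM of Zfyve9 and the one labelled SARATg AA had 19.8 CPM, against 89.8 and 92.4 CPM in SARATg vehicle libraries. A kidney library labelled SARAWT vehicle, library 3, also stood apart, with 17.5% proximal tubule cells and 45.0% T cells, where vehicle libraries 1 and 2 had 83.9 and 74.9% proximal tubule cells and 2.95 and 3.92% T cells.

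Cdkn2a (ENSMUSG00000044303) lies on the minus strand of chromosome 4 at chr4:89274471-89294653 on GRCm38, and Cdkn2b (ENSMUSG00000073802) 11645 bases away at chr4:89306299-89311039. Cdkn2c (ENSMUSG00000028551) is at chr4:109660876-109667189, and Cdkn2d (ENSMUSG00000096472) is on chromosome 9 at chr9:21288410-21291407. The annotation gives Cdkn2a 2 transcripts with separate first exons and shared 3′ exons. Reads from the 3′ end therefore cannot tell p16INK4a from p19ARF, and each Cdkn2a value below counts both. The promoters of the neighbouring genes, whose levels were both higher with bleomycin in stromal cells, are shown for comparison, 5′ to 3′ from RefSeq on GRCm38.p6, minus strand, from 250 bases before to 50 after the start. Capitals mark the GC box GGGCGG and the cyclic AMP response element TGACGTCA, searched on both strands. The first is the upstream start of Cdkn2a at chr4:89294570-89294869, the second its downstream start at chr4:89282143-89282442, and the third Cdkn2b at chr4:89310983-89311282.
Cdkn2a upstream start: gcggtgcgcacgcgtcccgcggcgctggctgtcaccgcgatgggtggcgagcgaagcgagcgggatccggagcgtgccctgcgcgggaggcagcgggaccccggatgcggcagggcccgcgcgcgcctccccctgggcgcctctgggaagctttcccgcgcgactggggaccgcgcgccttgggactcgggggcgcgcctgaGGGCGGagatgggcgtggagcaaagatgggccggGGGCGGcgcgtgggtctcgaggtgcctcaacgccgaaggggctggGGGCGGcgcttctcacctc
Cdkn2a downstream start: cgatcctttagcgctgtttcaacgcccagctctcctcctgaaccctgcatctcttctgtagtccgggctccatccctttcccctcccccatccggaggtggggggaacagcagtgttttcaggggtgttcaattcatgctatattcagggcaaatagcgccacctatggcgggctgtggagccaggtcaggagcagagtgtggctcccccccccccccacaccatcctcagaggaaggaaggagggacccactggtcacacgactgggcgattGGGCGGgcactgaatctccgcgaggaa
Cdkn2b: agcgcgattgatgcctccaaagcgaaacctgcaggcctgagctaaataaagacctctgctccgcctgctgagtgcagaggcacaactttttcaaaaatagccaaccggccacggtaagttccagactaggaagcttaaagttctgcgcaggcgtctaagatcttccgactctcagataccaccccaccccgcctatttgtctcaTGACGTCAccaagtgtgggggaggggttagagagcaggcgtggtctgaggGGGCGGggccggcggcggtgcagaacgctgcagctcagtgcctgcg
The upstream Cdkn2a promoter holds 77% G and C, 45 CpG and 3 GC boxes, the downstream one 60.3%, 12 CpG and 1 GC box, and the Cdkn2b promoter 57.7%, 18 CpG and 1 GC box. Over 32851 RefSeq promoters the median was 52.7% and 7 CpG, and 35.7% held a GC box. Of these 3 windows, the Cdkn2b window alone held TGACGTCA, which 1.79% of all promoters hold. The E2F-like sequence TTTCCCGC was in the upstream Cdkn2a window, and 1.07% of all promoters hold it. These are matches of letters, not measured binding.

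In skin stromal cells Cdkn2a stood at 7.37, 11.9 and 15.3 CPM in SARAWT PBS libraries 1 to 3 (67, 9 and 78 UMIs) and at 184, 146 and 107 CPM in SARAWT bleomycin libraries 1 to 3 (595, 253 and 328 UMIs). CPM is UMIs of the gene per 1000000 UMIs summed over the cells of the class in a library. Every bleomycin library lay above every PBS library, and 13.0% of all genes measured in these cells did the same. Group means were 11.5 ± 3.97 and 146 ± 38.5 CPM (SD, n = 3), a ratio of 12.7, and the fitted log2 fold change was 3.69 (SE 0.39). This is the value that chose the family. In the SARATg libraries the level was 3.74 CPM after PBS and 120 CPM after bleomycin. In the fit of SARAWT libraries 4.11% of all genes passed the threshold of an adjusted p of 0.05, a share that reads on nothing here because the contrast chose the genes.

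**Figure D1:**
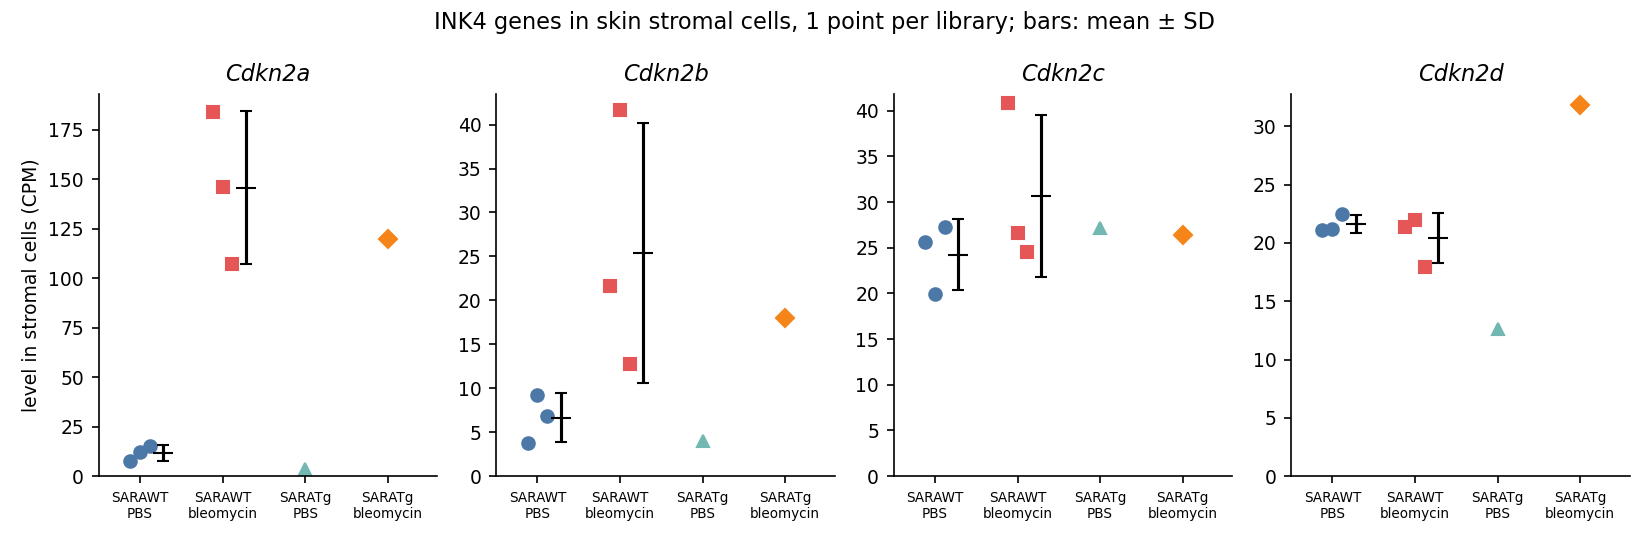
Level of each INK4 gene in skin stromal cells, in CPM (y axis, linear, from 0) by group (x axis), 1 point per library, with the mean and SD of the SARAWT groups. Cdkn2a runs from 3.74 to 15.3 CPM after PBS and from 107 to 184 CPM after bleomycin, and Cdkn2d has overlapping SARAWT groups.

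Cdkn2b, the neighbour of Cdkn2a, followed at a lower level. It had 3.74, 9.28 and 6.85 CPM after PBS and 21.7, 41.6 and 12.7 CPM after bleomycin in SARAWT libraries 1 to 3, again without overlap, for a ratio of means of 3.83 and a log2 fold change of 2.08 (SE 0.53). SARATg libraries had 4.03 and 18.03 CPM. Cdkn2c had 25.6, 19.9 and 27.2 CPM after PBS and 40.8, 26.6 and 24.5 CPM after bleomycin, and the groups overlapped (log2 fold change 0.34, SE 0.28). Cdkn2d had 21.1, 21.2 and 22.5 against 21.3, 22.0 and 17.96 CPM (-0.07, SE 0.22). Its SARATg libraries lay outside that narrow range, at 12.6 CPM after PBS and 31.9 CPM after bleomycin. The share of all genes that did likewise was not counted, so nothing is read from it.

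Cdkn2a UMIs were found in a part of the stromal cells. A cell without a UMI may still hold the RNA, and whether the RNA was limited to a part of the cells was not tested. At least 1 Cdkn2a UMI was found in 42 of 645, 7 of 139 and 29 of 343 stromal cells of SARAWT PBS libraries 1 to 3, or 6.51, 5.04 and 8.45%. After bleomycin it was found in 64 of 150, 34 of 187 and 55 of 172 cells, or 42.7, 18.2 and 32.0%, and in SARATg cells the share was 3.48% after PBS and 56.4% after bleomycin. These shares depend on depth, since median UMIs per stromal cell ran from 1439 in SARAWT bleomycin library 2 to 32248 in the SARATg bleomycin library. At an equal 1000 UMIs per cell, over the cells that reached that depth (588 of 645, 85 of 139 and 339 of 343 after PBS, 107 of 150, 123 of 187 and 170 of 172 after bleomycin), the expected shares were 1.27, 5.51 and 1.36% after PBS and 11.3, 7.49 and 5.86% after bleomycin. In SARATg they were 0.392% (912 of 920 cells) and 8.90% (484 of 488 cells). At 2000 UMIs, over fewer cells still, the value of PBS library 2 was 1.02%. In macrophages of the same libraries, which serve as a measure of free RNA, the unthinned share was 0 to 1.16% at median depths of 5254.5 to 13306.5 UMIs. The highest count in 1 stromal cell was 6, 3 and 8 UMIs after PBS and 70, 36 and 40 after bleomycin, and 8 and 118 in SARATg. Cells with 2 or more UMIs were 2.17, 0.719 and 4.96% after PBS and 34.7, 9.09 and 23.3% after bleomycin.

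Cdkn2a and Cdkn2b were partly found in the same cells. Stromal cells with UMIs of both numbered 4, 0 and 6 after PBS and 37, 15 and 14 after bleomycin in SARAWT libraries 1 to 3, and 7 and 125 in SARATg. Of the 275 Cdkn2a-positive cells of the SARATg bleomycin library 125 also had Cdkn2b, and of its 157 Cdkn2b-positive cells the same 125 had Cdkn2a. Deep cells show more genes of any kind, so this overlap is a description only.

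Stromal cells that held a UMI of Cthrc1, a gene of matrix-producing fibroblasts chosen here after its values were seen, had more Cdkn2a per UMI after bleomycin. The level was 203, 213 and 126 CPM in cells with Cthrc1 and 115, 66.2 and 89.4 CPM in cells without, in SARAWT bleomycin libraries 1 to 3, and 126 against 91.7 CPM in the SARATg bleomycin library. After PBS the order was not the same in all libraries, with 8.75 against 6.87, 27.7 (3 UMIs) against 9.29 and 11.4 against 17.7 CPM in SARAWT and 2.59 against 5.18 CPM in SARATg. The direction was also seen for other genes. Of 5 other genes looked at in this way, also after values were seen, Crabp1 gave 196, 226 and 152 CPM of Cdkn2a in cells with its UMIs and 143, 70.8 and 57.7 CPM in cells without in the same SARAWT libraries, and Cdkn1a 196, 148 and 108 against 124, 132 and 98.4 CPM. In the SARATg bleomycin library Crabp1 made almost no difference (119.9 against 119.5 CPM) and Cdkn1a gave 121 against 102 CPM. Cells with a UMI of Pi16 or of the proliferation gene Mki67 had less Cdkn2a than cells without in 3 of the 4 bleomycin libraries each, and for Cyp2f2 no direction held, with 262, 91.4 and 3.67 CPM (the last from 1 UMI in 14 cells) against 180, 159 and 117 CPM in SARAWT and 119.3 against 119.8 CPM in SARATg. Cells with Cthrc1 were also deeper, at a median of 38892.5 against 1043.5 UMIs in SARAWT bleomycin library 1.

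Other values moved with bleomycin in these stromal sums. Schwann cell markers, with 4 to 9 of 10 detected after PBS and 7 to 9 after bleomycin, summed to 16.8, 26.5 and 10.2 CPM after PBS and 116, 87.9 and 76.7 CPM after bleomycin, and muscle markers to 16.7, 99.4 and 64.2 against 113, 205 and 280 CPM. Of the Schwann list Sox10 was at 0 in SARAWT PBS libraries 2 and 3 and in no bleomycin library. Of the muscle list Myod1 was at 0 in PBS libraries 1 and 2. Pdgfrb was lower after bleomycin, at 61.6, 71.1 and 60.4 CPM against 124, 175 and 196 CPM, and Col1a1 at 7193, 11028 and 8031 against 14415, 18355 and 29309 CPM. Cycling cells were 26.7, 10.2 and 14.0% of stromal cells after bleomycin and 12.4, 4.32 and 2.92% after PBS. Cells with a UMI of Crabp1 were 130 of 645, 21 of 139 and 72 of 343 after PBS. After bleomycin they were 71 of 150, 49 of 187 and 75 of 172. Cells with Pi16 were 281, 54 and 89 of the same PBS cells and 27, 43 and 14 of the bleomycin cells. Without Crabp1, Cdkn2a was 7.38, 8.47 and 11.5 CPM after PBS and 143, 70.8 and 57.7 CPM after bleomycin. The part of the Schwann and muscle markers and of this make-up in the Cdkn2a levels was not tested. Among stromal cells outside the cycle the Cdkn2a levels were 6.01, 10.8 and 15.5 CPM after PBS and 192, 116 and 104 CPM after bleomycin. Left without barcodes shared between libraries the fit gave a log2 fold change of 3.02 for Cdkn2a, and without the libraries labelled SARAWT PBS 1 and 3 it gave 3.61, which sets the bleomycin libraries against PBS library 2 alone, with 9 Cdkn2a UMIs in 139 cells. PBS library 2 itself held 190 CPM of the human ZFYVE9 entry.

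Stromal cells were the main holders of Cdkn2a RNA in treated skin. They made up 7.09, 8.79 and 2.77% of the kept cells of SARAWT bleomycin libraries 1 to 3 and held 72.03, 68.4 and 50.2% of their Cdkn2a UMIs, and 9.86% of cells held 87.4% in the SARATg bleomycin library. After PBS they were 7.68 to 21.0% of cells with 32.5 to 59.8% of Cdkn2a UMIs. Cdkn2b was spread more widely, with 25.2 to 67.3% of its UMIs in stromal cells after bleomycin.

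In the order of classes over the 4 bleomycin libraries, Cdkn2a stood at 139 ± 34.0 CPM in stromal cells (SD, n = 4), 94.7 ± 82.5 CPM in muscle-lineage cells, 61.9 ± 20.0 CPM in Schwann cells and 9.81 ± 4.90 CPM in T cells or innate lymphoid cells (ILC). The stromal values are those that chose the family, so this order is a description. Neither the step from stromal to muscle-lineage cells nor that from muscle-lineage to Schwann cells was larger than the spread of the differences within libraries, although stromal cells lay above Schwann cells in all 4 libraries. The step from Schwann cells to T cells was larger than that spread. Dendritic cells followed at 2.52 ± 1.49 CPM, and macrophages had at most 1.14 CPM in any library. No Cdkn2a UMI was found in NK cells, the largest set of which was 0 of 133 cells in SARAWT bleomycin library 3, which allows a share of cells with a UMI of up to 2.26%.

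**Figure D2:**
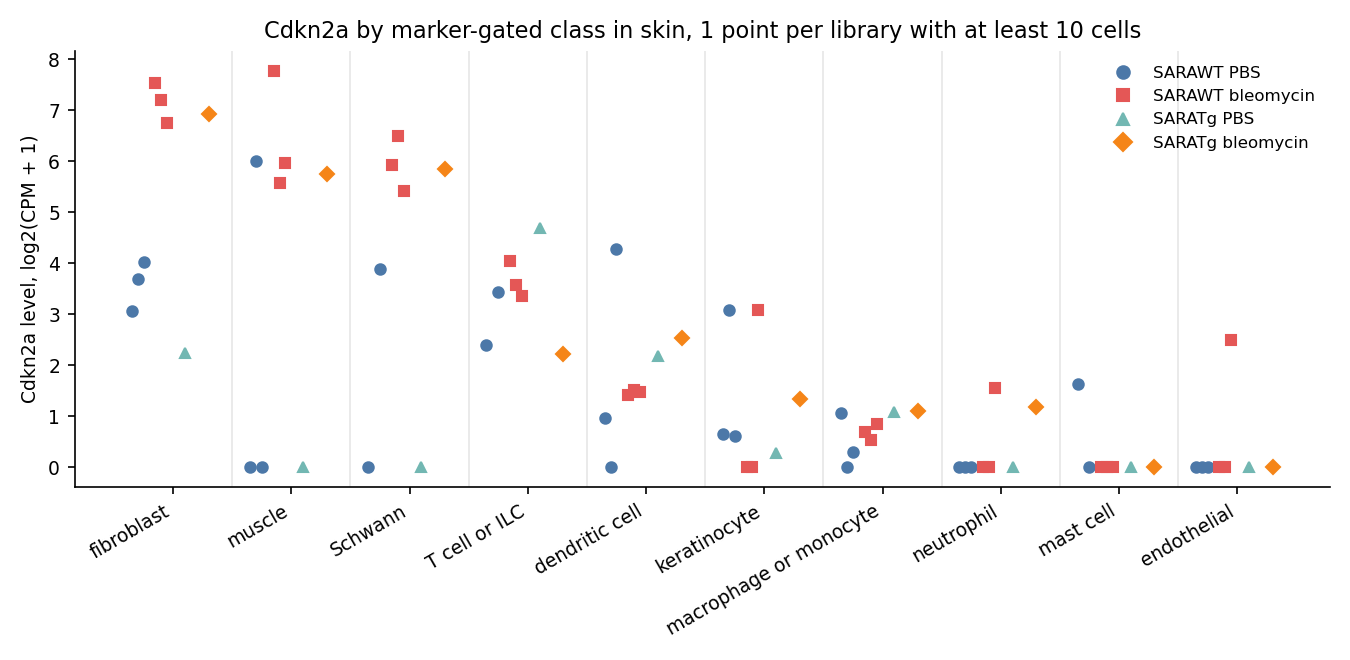
Cdkn2a in skin by cell class (x axis), as log2(CPM + 1) (y axis), 1 point per library with at least 10 cells of the class, coloured by group. The stromal, Schwann and muscle classes hold the highest bleomycin points, led by 218 CPM in muscle and 184 CPM in stromal cells, while macrophages stay at or under 1.14 CPM.

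Schwann cells, the glia of peripheral nerves, had no Cdkn2a UMI in 28 cells of SARAWT PBS library 1 and 13.7 CPM (4 of 38 cells positive) in library 3. Library 2 had 8 such cells and was left out. After bleomycin they had 59.6, 89.6 and 41.9 CPM, with 21 of 61, 8 of 20 and 39 of 135 cells positive. The groups did not overlap, as was so for 19.7% of all genes measured in these cells, and with 2 libraries against 3 the exact permutation test gave p = 0.2 (two-sided, the smallest it can give). SARATg Schwann cells had 0 of 39 cells positive after PBS, which allows a share of cells with a UMI of up to 7.69%, and 56.5 CPM with 22 of 62 cells positive after bleomycin, at median depths of 5234 and 15641.5 UMIs. Cdkn2c was likewise higher in Schwann cells, at 14.6 and 41.1 CPM after PBS and 77.8, 92.6 and 61.8 CPM after bleomycin (exact permutation p = 0.2), and at 50.8 and 86.5 CPM in SARATg. The summed Schwann markers of this class, all 10 detected, were 18881 and 11966 CPM after PBS and 2921, 5503 and 3090 CPM after bleomycin, and fibroblast markers were 2030 and 2645 against 2992, 4171 and 4548 CPM. What these markers contribute to the 2 results was not tested.

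Muscle-lineage cells gave high but uneven Cdkn2a values. They had 0, 63.4 and 0 CPM after PBS, where 63.4 CPM is 2 UMIs in 14 cells, and 218, 46.8 and 61.3 CPM after bleomycin. The highest value came from 117 UMIs in 5 of 54 cells. Between 49.4 and 74.0% of the cells of this class, by library, held exactly 3 markers or led the next class by 1 marker. SARATg had 0 of 493 cells positive after PBS and 52.4 CPM after bleomycin. The SARAWT groups overlapped (exact permutation p = 0.3, two-sided, smallest possible 0.1, n = 3). Cdkn2b had no UMI in muscle-lineage cells of the 3 SARAWT PBS libraries and 14.9, 8.92 and 6.61 CPM after bleomycin, 19 UMIs in all, and 16.1% of all genes measured in this class likewise had every bleomycin library above every PBS library.

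In immune cells of skin no member passed the test for bleomycin against PBS in SARAWT. Among myeloid cells (macrophages, monocytes and dendritic cells), where 0.0244% of all genes passed (3 genes, and 177 with the replicate number as a block), edgeR's quasi-likelihood test gave a log2 fold change of -1.25 for Cdkn2a (SE 0.78, adjusted p = 0.60) and -1.29 for Cdkn2b (SE 0.71, adjusted p = 0.55). Cdkn2c had -0.36 and Cdkn2d 0.54. Both negative values turned with 1 library, to 0.23 for Cdkn2a and 0.15 for Cdkn2b without the library labelled SARAWT PBS 3. In that library dendritic cells had 18.4 CPM of Cdkn2a (106 UMIs in 26 of 356 cells) and 15.3 CPM of Cdkn2b, while dendritic cells of all other skin libraries had at most 4.75 CPM of Cdkn2a. Among T cells or ILC, where 0.0% of all genes passed (163 genes with the replicate block), Cdkn2a had 4.28 and 9.84 CPM in PBS libraries 1 and 3. Library 2 had 8 such cells and was left out. After bleomycin Cdkn2a had 15.5, 10.8 and 9.20 CPM, overlapping groups with a log2 fold change of 0.67 (SE 0.48, adjusted p = 0.88, edgeR). With 1 library left out the log2 fold change ran from 0.27 to 1.57.

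The 2 SARATg skin libraries moved the other way in that class, with 24.8 CPM of Cdkn2a in T cells or ILC after PBS and 3.66 CPM after bleomycin. The difference in bleomycin effect between genotypes was -3.28 on the log2 scale (SE 0.79), with an unadjusted p of 0.0015 and an adjusted p of 0.27 in edgeR's quasi-likelihood test, where 0.104% of all genes passed (11 genes, and 111 with the replicate block). With the replicate number as a block the adjusted p was 0.0103, without the filter on low counts 0.00163 and with DESeq2 0.66, so the call rests on the setting. It also passed without SARAWT bleomycin library 1 (adjusted p = 0.0027), 2 (0.047) or 3 (0.0067), again by edgeR. With 1 library left out the difference ran from -4.46 to -2.61. More genes of any kind passed in such settings, 61 to 726 without the filter and 0 to 129 with 1 library left out over the skin fits of this kind. The spread comes from SARAWT libraries alone, so leaving them out does not test the SARATg groups. These fits and the one with the replicate block also hold few more libraries than fitted terms, so little of that spread is measured in them. The replicate block sets the SARATg libraries with SARAWT libraries 1, whose gene list they do not share. The SARAWT PBS arm of this contrast is the libraries labelled SARAWT PBS 1 and 3. Human ZFYVE9 in library 1 and Zfyve9 in library 3 go against their label, so the genotype difference takes the labels as they stand. One library stands for each SARATg group, and the T cells or ILC of the SARATg PBS library were 14.9% cycling against 6.05% after bleomycin. SARAWT libraries ran from 5.89 to 17.2%. Outside the cycle the SARATg levels of Cdkn2a were 8.53 CPM after PBS and 3.28 CPM after bleomycin. The part of cycling in the difference was not tested.

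In stromal cells the bleomycin effect on Cdkn2a differed between genotypes by 0.82 on the log2 scale (SE 0.73), and by 0.15 to 1.39 with 1 library left out. It reuses the SARAWT values that chose the family, so it is given with no test, and nothing is read from the 0.00744% of all genes that passed there. Cdkn2b differed by -0.27 (SE 0.93) and turned positive, to 0.49 without the library labelled SARAWT PBS 1 and to 0.21 without SARAWT bleomycin library 2. Cdkn2c differed by -0.82 (SE 0.56) and Cdkn2d by 0.95 (SE 0.44). In skin myeloid cells, where 0.0% of all genes passed, Cdkn2b differed by 1.96 (unadjusted p = 0.040, adjusted p = 1, edgeR). In the macrophages or monocytes among them every SARAWT bleomycin library lay below every PBS library for Cdkn2b, at 0.0886 to 0.624 against 0.692 to 1.07 CPM, as did 8.21% of all genes measured in that class.

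Keratinocytes also held Cdkn2b. SARAWT PBS libraries had 12.7, 0 and 9.87 CPM, the 0 coming from 20 cells, and bleomycin libraries had 9.30, 26.3 and 9.001 CPM, with 19.2 and 26.8 CPM in SARATg. The groups overlapped. Cdkn2a in keratinocytes was 0 to 7.51 CPM over all 8 libraries.

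In kidney macrophages or monocytes Cdkn2a had 0 CPM (0 of 355 cells), 6.43 CPM (11 of 558) and 11.6 CPM (96 of 1410) in SARAWT vehicle libraries 1 to 3 and 20.4 CPM (86 of 1465), 16.4 CPM (10 of 178) and 23.1 CPM (46 of 736) in the libraries labelled SARAWT AA 1 to 3. The AA libraries lay above all vehicle libraries, as did 6.89% of all genes measured in this class. Means were 6.02 ± 5.82 and 20.0 ± 3.40 CPM (SD, n = 3), a ratio of 3.32, with an exact permutation p of 0.1, the smallest 3 against 3 libraries allow (two-sided). By share of positive cells the groups overlapped, with vehicle library 3 (96 of 1410) above every AA library. In the wider myeloid class the median depth was 5627.5, 5421 and 10660.5 UMIs per cell after vehicle and 10753.5, 10090 and 12956 after AA. For the wider myeloid class edgeR gave a log2 fold change of 1.54 (SE 0.74, 95% interval -0.20 to 3.28, unadjusted p = 0.074, adjusted p = 0.81), and 0.0% of all genes passed. Without vehicle library 3, which resembled the AA libraries in its cells, the log2 fold change was 2.69 (adjusted p = 0.081, edgeR), and over all libraries left out in turn it lay between 1.09 and 2.69. Over the 4 AA libraries the class had 17.2 ± 6.29 CPM (SD, n = 4) and T cells 9.83 ± 4.49 CPM, so the spreads overlapped.

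Macrophages or monocytes had 0.727 and 3.99 CPM of Cdkn2a in SARATg vehicle libraries and 8.68 CPM in the library labelled SARATg AA. Zfyve9 went against the label in that library and in the one labelled SARAWT AA 1, so each genotype difference under AA given here takes the labels as they stand, and whether these labels were exchanged was not tested. With the labels so taken, the log2 difference in AA effect between genotypes was 0.48 (SE 1.48, adjusted p = 1, edgeR), a spread too wide to place it. T cell markers moved with AA in the myeloid sums of SARAWT mice, at 12.6, 20.0 and 92.9 CPM after vehicle (4, 9 and 10 of 10 detected) and 122, 98.9 and 122 CPM after AA (9, 9 and 10 detected). Of this list Cd3d, Cd3e and Cd3g were at 0 in vehicle library 1, and Trdc was at 0 in vehicle libraries 1 and 2 and AA libraries 1 and 2. Their part in the Cdkn2a values was not tested, and kidney T cells themselves had 0.912, 2.14 and 11.4 CPM after vehicle and 10.2, 4.24 and 9.67 CPM after AA, below the macrophage value of the same SARAWT library in all but vehicle library 1. T cells had 2.20 and 1.06 CPM in SARATg vehicle libraries and 15.2 CPM in the library labelled SARATg AA, above the macrophage value in SARATg vehicle library 1 and in the library labelled SARATg AA.

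**Figure D3:**
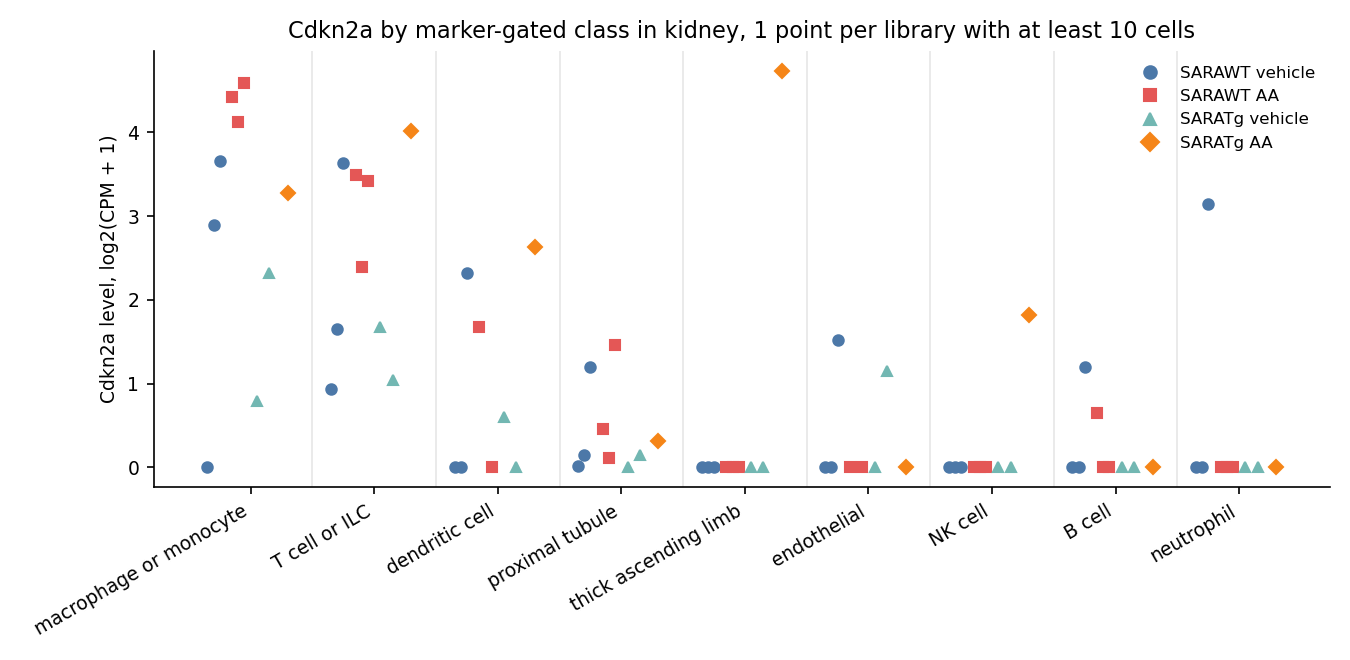
Cdkn2a in kidney by cell class (x axis), as log2(CPM + 1) (y axis), 1 point per library with at least 10 cells of the class, coloured by group. Macrophages or monocytes reach 23.1 CPM and T cells 15.2 CPM, and proximal tubule cells hold low values of at most 1.75 CPM. A single thick ascending limb point at 25.7 CPM belongs to the library labelled SARATg AA.

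Tubule cells were almost without Cdkn2a. Proximal tubule cells had 0 to 1.75 CPM over the 9 libraries. Thick ascending limb cells had 25.7 CPM in the library labelled SARATg AA, from 57 UMIs in 5 of 271 cells, and 0 in the other 8 libraries. The intercalated and distal convoluted tubule classes had at most 1 UMI in any library.

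Cdkn2b had its highest kidney levels after vehicle in the collecting duct. Principal cells of the collecting duct had 23.4 and 18.5 CPM in SARAWT vehicle libraries 2 and 3 and 27.4 and 17.2 CPM in SARATg vehicle libraries, a mean of 21.6 ± 4.68 CPM (SD, n = 4). That exceeded the thick ascending limb, next in order at 9.59 ± 6.83 CPM (n = 5), by more than the spread within libraries. After AA it had 48.9 CPM in the library labelled SARAWT AA 1 and 38.1 CPM in the one labelled SARATg AA, from 25 and 39 cells. Zfyve9 goes against the label in both, and the other 2 AA libraries had too few principal cells. In proximal tubule cells Cdkn2b was 6.22 CPM (77 UMIs) in the library labelled SARATg AA and at most 1.48 CPM elsewhere. With the labels as they stand, the log2 difference in AA effect between genotypes was 3.62 (SE 1.42, unadjusted p = 0.033, adjusted p = 0.98, edgeR), where 0.0% of all genes passed.

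Cdkn2d had its highest mean level in neutrophils in both tissues. In kidney neutrophils it had 247, 303 and 242 CPM after vehicle and 234, 305 and 261 CPM after AA in SARAWT libraries, 322 and 375 CPM in SARATg vehicle libraries 1 and 2, and 197 CPM in the library labelled SARATg AA. The SARAWT groups overlapped, the SARATg vehicle libraries lay above all SARAWT libraries and the library labelled SARATg AA below them. How many of all genes had SARATg libraries outside the SARAWT range was not counted, so nothing is read from this order. Over the 4 AA libraries the order was neutrophils at 249 ± 45.7 CPM (SD, n = 4), NK cells at 139 ± 19.6 CPM, T cells or ILC at 89.8 ± 10.6 CPM and B cells at 78.7 ± 25.9 CPM. The first 2 steps were larger than the spread within libraries and the step from T to B cells was not. Proximal tubule cells came last, at 10.6 ± 2.01 CPM. In kidney B cells every SARAWT AA library lay above every vehicle library (54.5 to 96.5 against 46.3 to 51.1 CPM), as did 7.47% of all genes measured there, and SARATg vehicle libraries reached 89.5 CPM. In skin mast cells every SARAWT bleomycin library lay below both PBS libraries (0 to 27.3 against 31.5 and 34.9 CPM, 30 UMIs in all), as did 9.71% of all genes measured there. The exact permutation p-values were 0.1 and 0.2, the smallest possible for 3 against 3 and 3 against 2 libraries. In skin, neutrophils again led with 136 ± 23.7 CPM over the 4 PBS libraries and 135 ± 35.6 CPM over the 4 bleomycin libraries, both beyond the spread to the next class. Single values of other classes could lie as high, with up to 175 CPM in endothelial cells of a SARAWT bleomycin library.

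**Figure D4:**
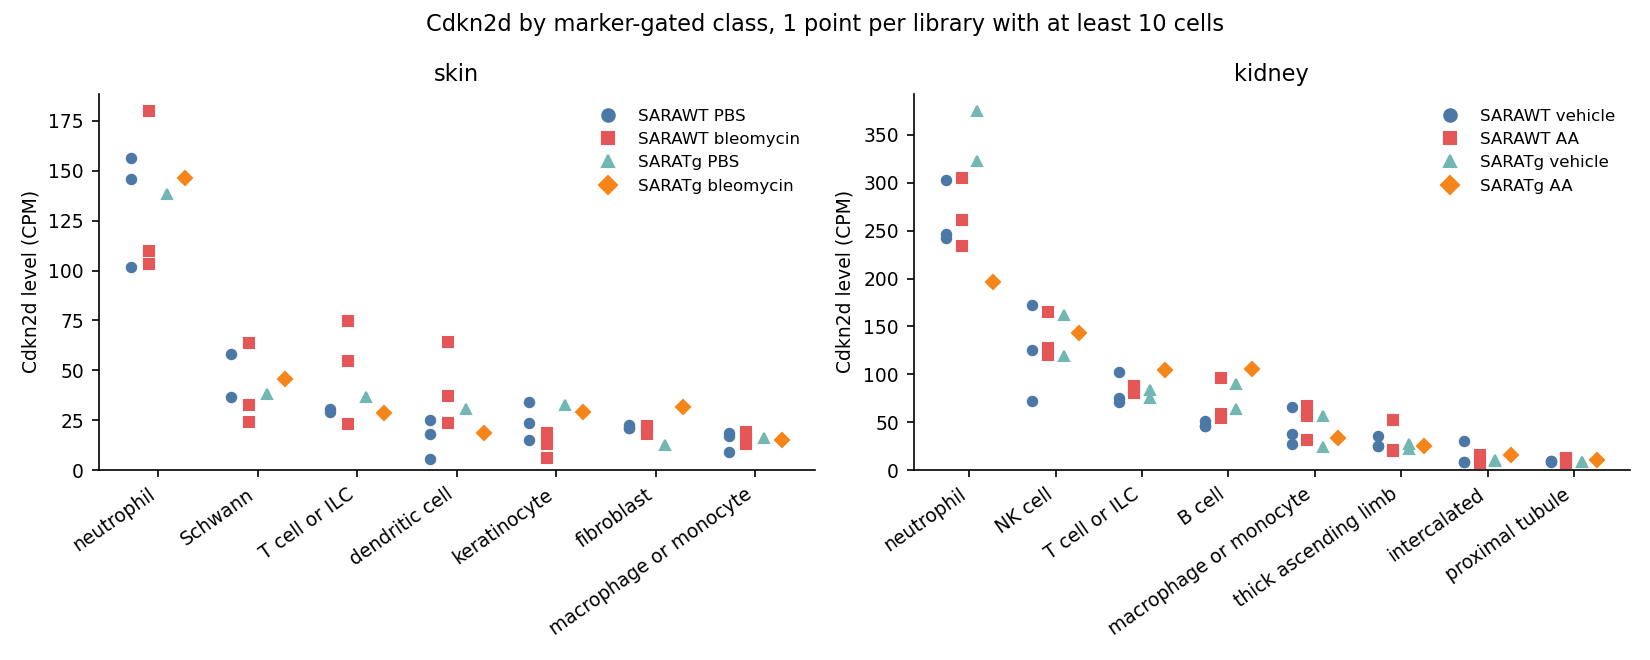
Cdkn2d by cell class (x axis) in skin and kidney, in CPM (y axis, linear, from 0), 1 point per library with at least 10 cells of the class, coloured by group. Among the classes shown neutrophils have the highest means in both tissues, from 102 to 180 CPM in skin and 197 to 375 CPM in kidney.

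Cdkn2c was found in nearly every class, with Schwann cells on top in skin (79.7 ± 13.4 CPM over 4 bleomycin libraries, SD) and no clear leader in kidney. Its AA and vehicle values in SARAWT kidney overlapped in 9 of 11 classes. Proximal tubule cells had 18.5, 22.1 and 26.1 CPM after vehicle and 33.8, 32.7 and 25.1 CPM after AA, with overlap. Every AA library lay above every vehicle library in neutrophils (3.64 to 6.86 against 11.4 to 16.1 CPM, 26 UMIs in all) and in intercalated cells (at most 9.47 against 10.5 to 12.8 CPM, 63 UMIs in all). The same was so for 6.2% of all genes measured in neutrophils and 5.88% in intercalated cells, and both had an exact permutation p of 0.1, the smallest possible.

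No INK4 gene passed the test in any other fit. AA against vehicle gave 15 gene and class pairs with log2 fold changes from -0.15 to 1.54, where between 0.0 and 0.0137% of all genes passed per class. SARATg against SARAWT under vehicle gave 11 pairs from -1.56 to 0.91, where between 0.0 and 0.0094% passed. These shares rest on the setting. Over the 10 fits of both contrasts at most 1 gene was called, but up to 142 with DESeq2, 217 without the filter and 241 with the replicate block. The difference in effect between genotypes gave 27 pairs outside stromal cells over both tissues, where between 0.0 and 0.104% of all genes passed per class. Of these pairs 3 had an unadjusted p under 0.05 and none an adjusted one, by edgeR. No share of all genes at the unadjusted threshold is set beside the 3, so nothing is read from them. Cdkn2a in the thick ascending limb could not be estimated, since all but 1 library are at 0.

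The cell cycle was a second axis that the choice of genes did not use. Cells with UMIs of at least 2 of 10 cycling genes were set against the other cells of the same class and library. In kidney proximal tubule cells Cdkn2c stood at 96.4 ± 26.7 CPM in cycling and 24.2 ± 4.74 CPM in other cells (SD, n = 8), and Cdkn2d at 54.6 ± 24.0 against 8.48 ± 1.20 CPM. Both were higher in cycling cells in 8 of 8 libraries, with mean log2 ratios of 1.61 and 1.71 after 10 CPM were added on each side. Each had an exact sign-flip permutation p of 0.0078, the smallest possible, and 0.054 adjusted over the 24 tests, so neither passed. The cycling tubule cells numbered 20 to 74 per library, and their depth was not set beside that of the other cells. How many of all genes were likewise higher in cycling cells was not counted, here or in the classes below. Non-cycling kidney T and NK cells had 87.1 CPM of Cdkn2d and 24.0 CPM of Cdkn2c. Whether RNA of other classes adds to the tubule values was not tested.

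The same direction held for Cdkn2c and Cdkn2d in every library of skin myeloid cells (7 of 7, mean log2 ratios 0.69 and 0.55), skin T cells or ILC (5 of 5, 1.14 and 0.77), kidney myeloid cells (7 of 7, 1.31 and 0.83) and kidney T and NK cells (6 of 6, 1.22 and 0.42). Their adjusted p-values ran from 0.054 to 0.107 by the exact permutation test, and with 5 libraries no p under 0.0625 was possible. Stromal cells gave 0.40 and 0.30 over 4 libraries, higher in 4 and 3 of them.

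Cdkn2a joined them in T cells. It had 39.6 ± 23.6 CPM in cycling and 5.31 ± 2.00 CPM in other skin T cells or ILC (5 of 5 libraries, mean log2 ratio 1.53), and 30.2 ± 12.3 against 4.52 ± 2.35 CPM in kidney T and NK cells (6 of 6, 1.43, exact permutation p = 0.031, adjusted 0.075, n = 6). In stromal cells no direction was seen, at 101 ± 68.6 CPM in cycling and 114 ± 80.2 CPM in other cells (n = 4), with a mean log2 ratio of -0.04 and 2 of 4 libraries higher. Cdkn2b was lower in cycling kidney myeloid cells in 7 of 7 libraries, by a mean log2 ratio of -0.26 (exact permutation p = 0.016, adjusted 0.054). These values lie near the floor, at means of 1.66 against 4.11 CPM, with 0 to 18 Cdkn2b UMIs per library in the cycling cells.

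**Figure D5:**
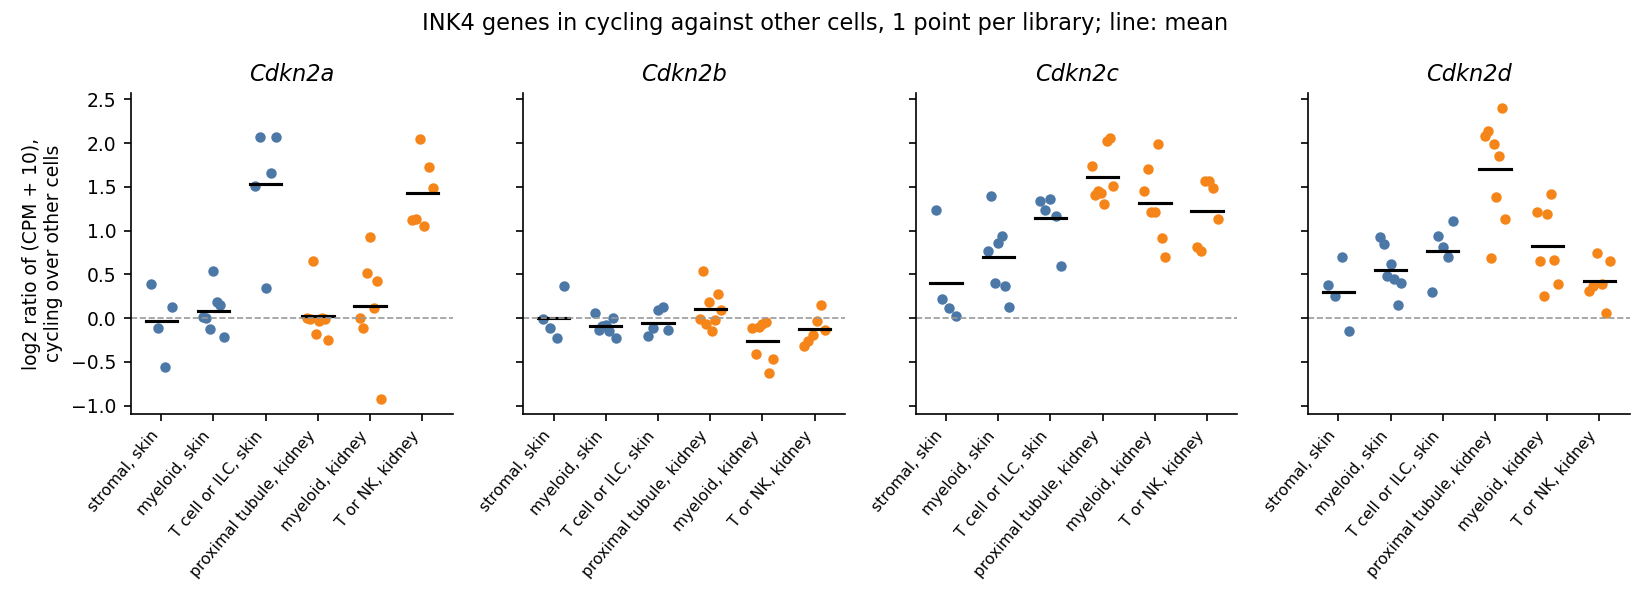
Log2 ratio of (CPM + 10) in cycling over other cells of the same class and library (y axis) for each member and class (x axis), 1 point per library, with a line at the mean, skin in blue and kidney in orange. Cdkn2c and Cdkn2d lie above 0 in every library of the myeloid, T cell and proximal tubule classes, and Cdkn2a does so in T cells.

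Genes around the family were read from fixed lists of 45 genes, of which 42 were measured well enough in stromal cells. Their stromal values for bleomycin against PBS in SARAWT come from the contrast that chose the family, so they are a description with no test. Ccnd1, a D-type cyclin, whose pairing with CDK4 and CDK6 the INK4 proteins oppose, had 132, 83.5 and 120 CPM after PBS and 521, 399 and 326 CPM after bleomycin, and 82.8 and 532 CPM in SARATg. Of the other targets, Cdk6 had 36.5, 11.9 and 49.1 CPM after PBS and 123, 69.4 and 109 CPM after bleomycin (log2 fold change 1.55), without overlap as for 13.0% of all genes. Cdk4 had a log2 fold change of 0.65, while Ccnd2 and Ccnd3 went the other way, each at -0.23. The 5 genes for CDK4, CDK6 and D cyclins had a median of 0.65, the 12 senescence-associated genes -0.11, the 3 CIP/KIP inhibitors -0.50 and the 8 Polycomb and demethylase genes -0.17, beside -0.0071 for all genes tested. The senescence-associated genes ran from -1.98 (Il6) to 1.69 (Timp1), with Lmnb1 at 0.89, so their median gives no direction of senescence.

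Genes often read with Cdkn2a are described in the same way. Cdkn1a, which encodes the p53-induced inhibitor p21, had 446, 682 and 735 CPM after PBS and 294, 584 and 572 CPM after bleomycin, Trp53 a log2 fold change of -0.22 and Mdm2 0.70. Kdm6b, a demethylase that removes the Polycomb mark, had 394, 725 and 455 CPM after PBS and 188, 291 and 230 CPM after bleomycin (-1.15). Of the Polycomb genes listed with it, Cbx8 had -1.30 and Cbx7 -0.72, and the others lay between -0.18 and 0.16. Il6, a secreted factor of senescent cells, had -1.98, whereas Timp1 had 1.69. In the 19 fits outside stromal cells 0 of 696 tested pairs of list gene and fit passed by edgeR, where between 0.0 and 0.104% of all genes passed per fit. Of these pairs 55 had an unadjusted p under 0.05, and the lowest adjusted p was 0.20. No share of all genes at the unadjusted threshold is set beside the 55, so nothing is read from them.

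Over 78 sums of library and class in skin, the genes whose log2(CPM + 10) was most like that of Cdkn2a were Hmga2 (Pearson r = 0.84), Capn6 (0.84), Timp1 (0.80), Akr1b8 (0.79) and Nnmt (0.78), among 11088 genes. Cdkn2b came 121st, at 0.59. The genes most like Cdkn2b were led by Dhrs4 (0.72), those like Cdkn2c by Tusc3 (0.76) and those like Cdkn2d by H2-Q10 (0.67). Over 104 sums in kidney Dennd4a (0.88) and Pglyrp1 (0.88), the second a neutrophil protein, were most like Cdkn2d, and Erg28 (0.54) was most like Cdkn2c, with the cycling genes Nusap1 (0.48) and Cdk1 (0.47) among its first 5. The sums share libraries and depth, so these values describe likeness of pattern and carry no test.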

How the data were processed

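The authors deposited UMI counts per gene and cell barcode for 17 droplet libraries (10x 3′ v3, mm10), and the submitters' notes name Cell Ranger 3.0.2 and Seurat 2.3.4. The file headers instead give Cell Ranger 4.0.0 for the skin libraries with the longer gene list, 3.1.0 for the other skin libraries and 3.0.2 for kidney. Both SARATg skin libraries are among those of 3.1.0. Counts were used as deposited, joined by gene ID over 30406 shared genes. The members and lists were chosen with earlier results of these data known. Cells were kept from 200 genes upward when mitochondrial UMIs made up no more than 20% (skin) or 50% (kidney), and the highest-scoring 0.8% per 1000 cells by scrublet in scanpy 1.11.5 were removed as doublets. A class needed 3 of its 10 markers and more than any other class. Intervals and floors (3 counts) cover counting error only.

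Counts were summed per library and class (at least 10 cells) and tested with edgeR 4.0.16 (quasi-likelihood, TMM, Benjamini-Hochberg adjustment over all genes, threshold 0.05). DESeq2 1.42.0, no filter, a replicate block, stricter gates and leaving out libraries were alternatives. Skin fits of the genotype difference carried the gene list as a covariate. As an alternative in the 2 skin bleomycin fits outside stromal cells, that covariate gave 89 and 186 genes called. The pipeline was tested on simulated data. Named genes were the 4 members, the fixed pathway lists, Zfyve9 and, per member and tissue, up to 5 genes with the highest Pearson r.

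Replicate numbers come from the sample titles. Same-numbered SARAWT skin libraries deviated together (r = 0.196 to 0.367 in stromal and 0.248 to 0.596 in myeloid cells). In T cells or ILC r was 0.343 to 0.511 over 2 pairs. The main fits used no block for this, and the replicate block was an alternative. SARAWT skin libraries 3 also differ from libraries 1 and 2 in gene list and Cell Ranger version, and this was not separated from the number. SARATg skin libraries, numbered 1 but with the gene list of SARAWT libraries 3, were not part of this check. In kidney r ran from -0.267 to 0.337 for AA, so the numbers were not taken as pairs.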

Additional observations from a re-analysis of the deposited data

Results flagged for a closer look

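For Cdkn2b in skin macrophages or monocytes the values of the genotypes lay in opposite directions. SARATg libraries had 0.746 CPM after PBS (12 UMIs, 95% exact Poisson interval 0.386 to 1.30) and 0.872 CPM after bleomycin (23 UMIs, 0.553 to 1.31), a difference of 0.125 CPM upward that lies within counting error, while SARAWT libraries had 0.692, 0.822 and 1.07 CPM after PBS and 0.0886, 0.355 and 0.624 CPM after bleomycin, all lower, as for 8.21% of all genes measured in this class. The SARAWT PBS libraries 1 and 3 among them are those whose human ZFYVE9 (library 1) or Zfyve9 (library 3) goes against the label. The difference was not tested for this class, whose values rest on few UMIs, and in the wider myeloid class it was 1.96 on the log2 scale (adjusted p = 1, edgeR).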

How the results depend on the processing

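The number of INK4 genes whose treatment effect differed between genotypes went from 0 to 1 without the filter on low counts and with the replicate block, and lay between 0 and 1 when libraries were left out in turn. That gene was Cdkn2a in skin T cells or ILC. For bleomycin in stromal cells the log2 fold change of Cdkn2a was 3.02 without shared barcodes and 3.29 to 4.18 with 1 library left out. Genes called there numbered 461, and 1019 with DESeq2, 1112 without the filter, 1189 with the replicate block, 81 without shared barcodes, 8 without the libraries labelled SARAWT PBS 1 and 3, which leaves 1 PBS library, and 15 to 351 with 1 library left out. With the replicate block the stromal log2 fold changes of Cdkn2a, Cdkn2b, Cdkn2c and Cdkn2d were 3.72, 1.87, 0.33 and -0.08. The difference in share of Cdkn2a-positive stromal cells was 5.51 percentage points at 1000 UMIs, 13.0 at 2000 UMIs and 24.3 unthinned, and that of Cdkn2b 1.46, 3.31 and 13.5. With doublets kept, 2 of 24 cycling comparisons passed, in proximal tubule cells (Cdkn2c 1.32 and Cdkn2d 1.56, adjusted p = 0.0469 by the exact permutation test). The values that changed sign were Cdkn2a in skin myeloid cells (-1.66 to 0.23 with 1 library left out, the latter without SARAWT PBS 3, and 6.86 without SARAWT PBS 1 and 3, which leaves 1 PBS library with 0 UMIs and so gives no fold and no sign), Cdkn2b there (-1.78 to 0.15, the latter without SARAWT PBS 3), Cdkn2a in kidney myeloid cells for genotype (0.042 with the replicate block), Cdkn2b in kidney T and NK cells for AA (-0.035, without SARAWT AA 1, to 1.20) and the stromal genotype difference of Cdkn2b (-1.03 to 0.49, the latter without SARAWT PBS 1, and 0.21 without SARAWT bleomycin 2), beside Cdkn2d in stromal cells for bleomycin, which stayed near 0 (-0.18 to 0.031 with 1 library left out). The cause was not tested.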

Other observations

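Kidney fibroblast-marker cells reached 10 in 2 libraries. The 12 cells of the library labelled SARATg AA had 88.6 CPM of Cdkn2b (14 UMIs) and 12.7 CPM of Cdkn2a, and the 36 cells of SARATg vehicle library 2 had 8.27 CPM (2 UMIs) and 0 CPM. With 1 library each there was no test.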
